A study of Mus musculus with 3 samples.

Results

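The 10 genes described here handle arginine in the mouse macrophage: Nos2, Gch1 and Ddah2 around nitric oxide synthesis, Ass1 and Asl in the remaking of arginine, Slc7a1 and Slc7a2 in its uptake, Arg1 and Arg2 in its breakdown, and Odc1 in the use of the product. They were taken from a list by gene symbol and joined to their gene identifiers, and all 10 were found among 55536 gene entries. Polyadenylated RNA had been sequenced from macrophages of C57BL/6J mice, grown from bone marrow as primary cells and exposed for 480 minutes to 100 ng/mL of a stimulus. The labels name it in 2 ways, as lipid A in the descriptions and as lipoprotein A in the treatment fields. Age and sex were not collected, no gene was deleted or added per the labels, and no unstimulated cells were analysed here, so the values are levels and not responses. All 3 libraries formed 1 group, here replicates 1, 2 and 3, from separate biosamples that carry the same donor label, so differences between them may be technical.

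Activated mouse macrophages are known for converting arginine to nitric oxide and citrulline with an inducible synthase. Citrulline can be turned back into arginine by a pair of cytosolic enzymes, and fresh arginine enters through cationic amino acid carriers. Arginase competes for the same substrate and yields ornithine, from which ornithine decarboxylase starts polyamine synthesis.

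Levels are given in TPM, a share of all transcripts that is divided by transcript length and can be compared between genes. Libraries held 26589042, 34344922 and 48356527 expected counts on genes in replicates 1, 2 and 3. All 8 macrophage markers stood at 1 TPM or more in every library and summed to between 16752.2 and 21243.2 TPM, as the label macrophage has it. Neutrophil markers summed to 28.0, 428 and 25.2 TPM in replicates 1, 2 and 3, with 3 of 11 at 1 TPM or more in every library. Replicate 2 thus stood apart, with S100a9 at 237 TPM there against 14.8 and 12.4 TPM in replicates 1 and 3, while the neutrophil surface gene Ly6g had 2 counts there and none elsewhere. Endothelial markers summed to 73.8, 33.5 and 78.3 TPM, most of it from Kdr alone at 66.4, 27.6 and 65.7 TPM. Of these 6 markers, Kdr, Vwf and Cdh5 stood at 1 TPM or more in every library. Tek, Tie1 and Emcn had only 1, 5 and 10 counts in all. None of 6 fibroblast markers reached 1 TPM in any library, with sums of 0.25, 1.67 and 1.48 TPM. The part that these markers play in any value below was not tested. For the 10 genes and pairs, values without replicate 2 are given where a call changed or a value moved by more than 1.5 times. Fewer cells of a type and less RNA per cell cannot be told apart in such bulk RNA.

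At this time the RNAs for nitric oxide synthesis were abundant and those for arginase were scarce. Nos2, the inducible nitric oxide synthase, averaged 523 ± 20.2 TPM and Arg1, the cytosolic arginase, 0.0333 ± 0.0577 TPM (SD, n = 3 libraries, as for every mean below). Of the 10 genes, 7 reached 1 TPM in all 3 libraries, where 17.9% of all gene entries and 42.0% of protein-coding genes did. The other three were Arg1, Arg2 and Slc7a1, of which Arg2 passed without replicate 2.

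**Figure D1:**
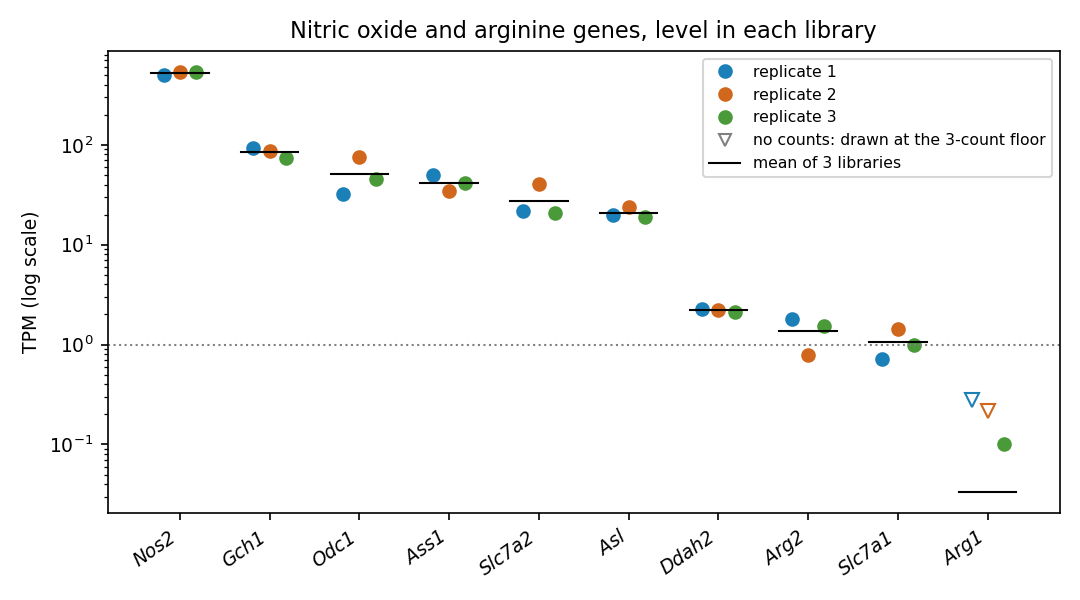
TPM on a log axis for each of the 10 genes, ordered by mean. Points are the 3 libraries, bars their mean, open triangles the TPM that 3 counts would make in a library without counts, and the dotted line 1 TPM; Nos2 stands at 500 to 538 TPM and Arg1 at 0.1 TPM in 1 library only.

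Nos2 (ENSMUSG00000020826.8, mm10 chr11:78920787-78960254, plus strand) stood at 500, 538 and 530 TPM in replicates 1, 2 and 3, from 34108, 49530 and 66434 expected counts. It ranked 307 among all genes by mean TPM. The highest library was 1.08 times the lowest, so Nos2 was among the steadiest of the 10 genes in these TPM. A second deposited quantification, described below, gave 357, 505 and 443 TPM, a wider spread than for Ass1 there (35.2, 31.2 and 33.9 TPM). The median shift of all detected genes in it also differed by library, at -0.38, -0.08 and -0.24 in log2. The other nitric oxide synthases were at or near 0. The neuronal form Nos1 had 2 counts in all, and the endothelial form Nos3 had none in any library. With Nos3 set at its highest floor of 3 counts per library, 0.0473 TPM, the Nos2 level was at least 10567.3-fold higher in the library with the lowest Nos2.

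Gch1 (ENSMUSG00000037580.10, chr14:47153895-47189413, minus strand) encodes GTP cyclohydrolase, the first enzyme in making tetrahydrobiopterin, which nitric oxide synthases need. It stood at 92.0, 86.8 and 73.7 TPM in replicates 1, 2 and 3, the second highest level of the 10. Replicate 3 was the low one, by 1.25 times. Its mean level of 84.2 ± 9.47 TPM was below that of Nos2 in 3 of 3 libraries, a difference of -2.64 ± 0.20 in log2 TPM. The feedback regulator of this enzyme, Gchfr, had 1 count in all. The ratio of mean TPM of Gch1 over Gchfr was 2805.4, with a 95% exact Poisson interval from 504 to 110809.1 that covers counting error only. The log2 difference was 9.40 ± 0.70, and 8.39 with posterior mean TPM, a second estimate in the deposited gene tables, which the interval does not cover.

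Ddah2 (ENSMUSG00000007039.12, chr17:35059035-35062095, plus strand) encodes a member of the family known for breaking down methylarginines, which inhibit nitric oxide synthases. It was low, at 2.29, 2.21 and 2.12 TPM, and close together in TPM, but rested on 43, 55 and 72 counts. Its relative Ddah1 had 3 counts in all. The ratio of mean TPM of Ddah2 over Ddah1 was 66.2 (95% exact Poisson interval 22.7 to 321), and the log2 difference of 4.16 ± 0.49 was 3.39 with posterior mean TPM.

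Ass1 (ENSMUSG00000076441.9, chr2:31470207-31520672, plus strand) encodes argininosuccinate synthase, which joins citrulline to aspartate. It stood at 49.3, 34.2 and 41.5 TPM in replicates 1, 2 and 3, lowest in replicate 2. Asl (ENSMUSG00000025533.15, chr5:130011258-130029247, minus strand) encodes argininosuccinate lyase, which releases arginine from the joined product. It stood at 19.6, 23.6 and 18.8 TPM, so the library that was lowest for Ass1 was highest for Asl. Ass1 was above Asl in 3 of 3 libraries, by 1.33, 0.53 and 1.14 in log2 TPM. The mean of 1.00 ± 0.41 exceeded 2 SD narrowly, and did not without replicate 1 (0.83 ± 0.43) or without replicate 3 (0.93 ± 0.56). The Nos2 level was 12.5 times that of Ass1 (3.66 ± 0.32 in log2).

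Of the 2 carriers, Slc7a2 was by far the more abundant. Slc7a2 (ENSMUSG00000031596.15, chr8:40862396-40922308, plus strand) encodes cationic amino acid transporter 2 and stood at 21.5, 40.1 and 20.5 TPM in replicates 1, 2 and 3. Replicate 2 was 1.96 times the lowest, and replicates 1 and 3 lay close together, with a mean of 21 TPM without replicate 2. Slc7a1 (ENSMUSG00000041313.14, chr5:148327410-148399904, minus strand), which encodes the widely expressed transporter 1, stood at 0.72, 1.44 and 0.98 TPM, also highest in replicate 2. The log2 difference of Slc7a2 over Slc7a1 was 4.72, 4.71 and 4.25 in the 3 libraries, so it varied less than either level. The mean was 4.56 ± 0.26, and the ratio of mean TPM 26.2. Slc7a2 lay below Slc7a7, a subunit of an arginine exchanger, in 3 of 3 libraries, with a log2 difference of -0.82 ± 0.17.

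The arginases were the low end of the list. Arg1 (ENSMUSG00000019987.9, chr10:24915221-24927484, minus strand) had 4 counts in replicate 3, or 0.1 TPM. It had none in replicates 1 and 2, which allows up to 0.28 and 0.215 TPM there at 3 counts. The second quantification gave Arg1 0.127, 0 and 0.0793 TPM in replicates 1, 2 and 3. Arg2 (ENSMUSG00000021125.6, chr12:79130777-79156301, plus strand), the mitochondrial arginase, stood at 1.79, 0.78 and 1.53 TPM, from 36.3, 21 and 56.2 expected counts, lowest in replicate 2. The level of Arg2 was above that of Arg1 in 3 of 3 libraries, with a ratio of mean TPM of 41.0 (95% exact Poisson interval 16.0 to 150) and a log2 difference of 3.47 ± 0.67. That difference was 1.45 with posterior mean TPM and 1.17 with a pseudocount of 1, so its size depended on the estimate and the pseudocount, which the interval does not cover. Nos2 was 382 times Arg2 by mean TPM (8.55 ± 0.63 in log2) and 15679 times Arg1 (95% exact Poisson interval 6123.7 to 57544.7). By these expected counts the ratio over Arg1 rests on replicate 3 alone, and Arg1 has no expected counts without that library. In log2 it was 12.02 ± 0.56, and 9.96 with posterior mean TPM, where Arg1 averaged 0.403 TPM, and 8.99 with a pseudocount of 1. The span of Arg2 overlaps by 285 bases that of Vti1b on the opposite strand, which had 1043.7 to 1770.8 counts, and by 997 bases that of the antisense gene Gm48780, which had at most 4. Whether counting used strand is not given in the sources used here, so reads from these overlaps cannot be told apart.

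Odc1 (ENSMUSG00000011179.8, chr12:17544794-17551505, plus strand) encodes ornithine decarboxylase, the first enzyme of polyamine synthesis. It stood at 32.3, 75.4 and 45.9 TPM in replicates 1, 2 and 3, the widest range of the 7 genes detected in all libraries. Its mean of 51.2 ± 22.0 TPM was 37.5 times that of Arg2 (5.11 ± 1.19 in log2). Without replicate 2 the means were 39.1 TPM for Odc1 and 1.66 TPM for Arg2, and the log2 difference was 4.46. Oaz1, an antizyme that targets the decarboxylase for degradation, was 6.5 times as high as Odc1 by mean TPM (2.78 ± 0.72 in log2). Odc1 lay below the antizyme inhibitor gene Azin1 in 3 of 3 libraries, with log2 differences of -1.61, -0.10 and -1.01. The mean of -0.91 ± 0.76 did not exceed 2 SD, and it did without replicate 2 (-1.31). In all, 13 of 14 such gene pairs were apart by this rule, namely the same sign in 3 of 3 libraries and a mean above 2 SD. An exact sign-flip test on 3 libraries cannot give a two-sided p below 0.25, so none was used.

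Ordered by mean TPM the genes ran Nos2, Gch1, Odc1, Ass1, Slc7a2, Asl, Ddah2, Arg2, Slc7a1 and Arg1. Of the 9 pairs of neighbours, 3 were apart by that rule. Nos2 lay above Gch1, Asl above Ddah2 by 3.17 ± 0.17, and Slc7a1 above Arg1 by 3.14 ± 0.76 in log2 TPM. The order from Gch1 to Asl was not fixed by these libraries. Odc1 lay above Ass1 in 2 of 3 libraries, by 0.22 ± 0.88, and Ass1 above Slc7a2 in 2 of 3, by 0.66 ± 0.77. Without replicate 2, 8 of the 9 neighbours were apart, in the order that those libraries gave. Odc1 then averaged 39.1 TPM, below Ass1 at 45.4 TPM. Without replicate 1, Arg2 averaged 1.16 TPM, below Slc7a1 at 1.21 TPM.

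The spread between libraries was next set against counting error, with a chi-square test on counts scaled by library. Of the 9 genes with a mean count of 10 or more, 7 varied beyond counting error, and 70.9% of all genes tested did, so these genes were close to the background. Slc7a2 and Odc1 had the lowest Benjamini-Hochberg adjusted p in this chi-square test, 8.4e-258 and 2.4e-133. Such p-values also depend on the number of counts, 11856.4 in all for Slc7a2 and 113.6 for Arg2, and do not rank the size of a spread. Gch1 (2.9e-28), Ass1 (6.9e-25), Nos2 (5.3e-17), Slc7a1 (1.1e-06) and Arg2 (0.0043) also passed. Asl (adjusted p = 0.83) and Ddah2 (0.86) did not, which does not show that they were equal. The order of these p-values depended on replicate 2. Without it the adjusted p was 7.2e-29 for Gch1, 9.4e-20 for Odc1, 4.6e-15 for Nos2, 1.9e-06 for Ass1, 0.0014 for Slc7a2 and 0.042 for Slc7a1. Arg2 no longer passed (0.56), and 5299 of all genes passed in place of 8799. These p-values compare 3 libraries and say nothing of conditions.

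An estimate of the size of the spread gave another order. The biological coefficient of variation came from edgeR's per-gene dispersion, which borrows from other genes and is not a gene's own spread. Ddah2 and Asl had chi-square values of only 0.344 and 0.42, and Slc7a2 1191.8, so the coefficient does not show that Ddah2 varied more than Slc7a2. The coefficient was 16.0% for Nos2, 15.3% for Asl and 16.2% for Gch1. It was 19.0% for Ass1, 24.8% for Slc7a2, 26.2% for Odc1, 26.4% for Ddah2, 26.9% for Slc7a1 and 37.7% for Arg2, where the median of all genes was 20.5% and 5% to 95% of them spanned 15.0% to 42.1%. Odc1 was the 1 gene of the 7 detected whose highest library was 2 times the lowest or more, at 2.33 times, as it was for 10% of detected genes. In replicates 1 and 3 alone Odc1, at 32.3 and 45.9 TPM, was less than 2 times apart. Slc7a2 lay just short of 2 times over all 3 libraries, at 1.96 times. Arg2 at 2.29 and Slc7a1 at 2.0 times were below 1 TPM in at least 1 library.

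**Figure D2:**
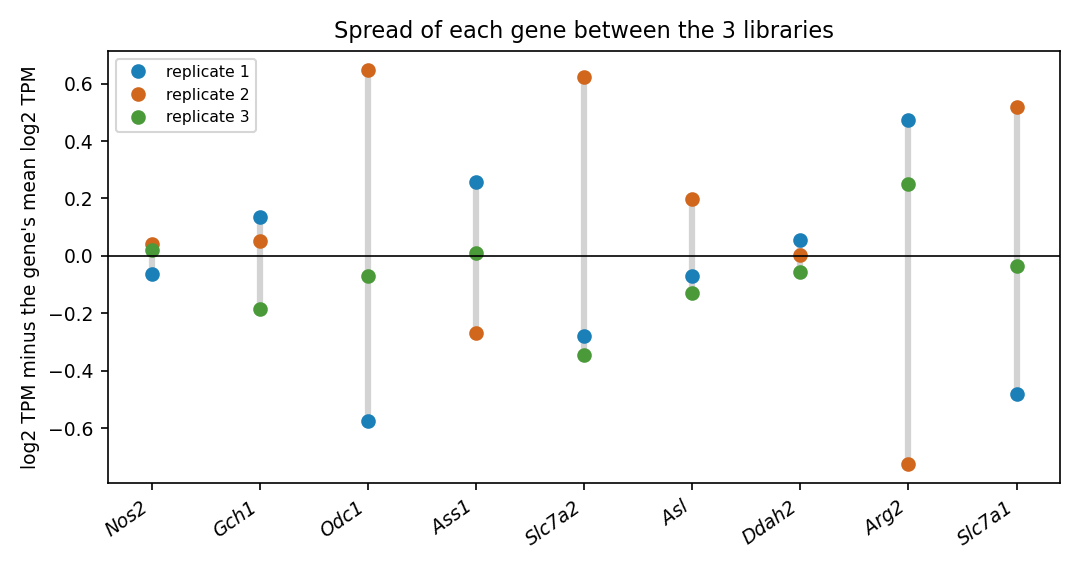
Log2 TPM of each library minus the gene's own mean of log2 TPM, for the 9 genes with counts in every library. Points are libraries and grey bars span the 3; replicate 2 is highest for Nos2, Odc1, Slc7a2, Asl and Slc7a1 and lowest for Ass1 and Arg2.

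Libraries did not order the genes alike. Of the 7 detected genes, 4 were highest in replicate 2 (Nos2, Odc1, Slc7a2 and Asl), where 46.3% of all detected genes were. Another 3 were highest in replicate 1 (Gch1, Ass1 and Ddah2), where 30.6% of detected genes were, and none in replicate 3, where 23.2% were. Summed over the 10 genes the level was 719, 803 and 735 TPM, and most of it was Nos2. Replicate 2 is also the library in which the neutrophil markers stood apart, and this was not tested against the values of these genes.

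Transcripts were compared because Slc7a2 is known to make carriers of low and high affinity by choosing between a pair of coding exons. The annotation holds such a pair, 140 and 137 bases long, exon 7 in Slc7a2-203 and exon 7 in Slc7a2-201. The 140-base exon is in Slc7a2-202 and Slc7a2-203 (mm10 chr8:40908056-40908195, plus strand), and the 137-base exon is in Slc7a2-201 and Slc7a2-204 (chr8:40908398-40908534, plus strand). Which of them belongs to which carrier is not named in the files. Capitals mark bases that differ between the 2 exons, and the sequences are shown because the full transcripts differ in coding sequence here.
Slc7a2 140-base exon: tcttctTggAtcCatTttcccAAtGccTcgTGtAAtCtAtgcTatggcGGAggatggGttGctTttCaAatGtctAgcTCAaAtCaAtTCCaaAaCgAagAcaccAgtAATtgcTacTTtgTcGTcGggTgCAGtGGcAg
Slc7a2 137-base exon: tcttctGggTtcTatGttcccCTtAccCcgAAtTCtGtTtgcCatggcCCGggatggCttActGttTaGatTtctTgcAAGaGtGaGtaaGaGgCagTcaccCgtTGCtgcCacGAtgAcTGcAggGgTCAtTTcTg
They matched at 84 of 137 aligned bases, or 61.3%, with a gap of 3 bases.

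The matching exon of Slc7a1, exon 8 of Slc7a1-201 (chr5:148340536-148340675, minus strand), is 140 bases long. It is shown with capitals where it differs from the 140-base exon of Slc7a2.
Slc7a1 matching exon: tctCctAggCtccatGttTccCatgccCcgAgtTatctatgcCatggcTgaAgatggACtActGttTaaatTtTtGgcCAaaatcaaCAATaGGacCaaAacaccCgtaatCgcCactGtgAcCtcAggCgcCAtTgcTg
It was 70.0% identical to the 140-base exon and 70.1% identical to the 137-base exon, so base identity did not set the pair of Slc7a2 exons apart, whereas length did.

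The 140-base exon carried 69.8, 79.0 and 83.2% of Slc7a2 TPM in replicates 1, 2 and 3, and the 137-base exon 29.5, 19.6 and 15.7%. These are sums over the whole transcripts that hold each exon, so they also rest on reads outside the exons. Nearly all of the 137-base share was on Slc7a2-201 (29.3, 19.6 and 15.7%). The 140-base exon led in every library by these sums. The share on the 137-base exon, 21.6 ± 7.09%, depended on the quantification. In a second deposited quantification of the same libraries, made from the reads without an alignment, it was 3.66, 2.13 and 0.848% (2.21 ± 1.41%). The 140-base exon led there too, with 96.1, 97.0 and 98.9%, and only its lead was common to both.

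**Figure D3:**
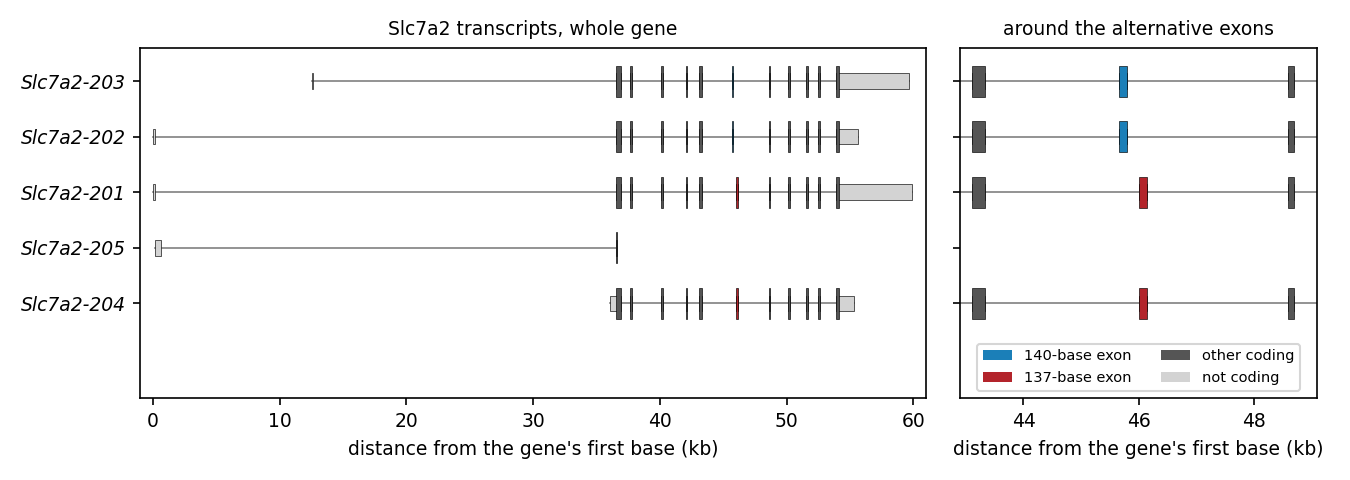
Annotated Slc7a2 transcripts, with distance from the first base of the gene in kb, for the whole gene on the left and around the alternative exons on the right. Tall boxes are coding, low boxes not coding, and the 140-base and 137-base exons are coloured; no full transcript holds both.

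The first exons gave a different picture. First exons that begin within 0.2 kb of the gene start, in Slc7a2-201, Slc7a2-202 and Slc7a2-205, took 56.2 ± 5.0% of TPM. That of Slc7a2-205 does not overlap those of Slc7a2-201 and Slc7a2-202. A first exon 12.6 kb further in, used by Slc7a2-203, took 43.7 ± 5.1%. The second quantification gave 56.9 ± 3.75% and 42.8 ± 3.31%, so both start regions were in use at like shares in both. The leading transcript nevertheless differed. It was Slc7a2-203 in the alignment-based tables, with 37.9, 47.4 and 45.9%, and Slc7a2-202 in the second quantification, in 3 of 3 libraries each. These differ in their 3′ ends: transcripts with the long 3′ end held 65.2 ± 3.15% in the alignment-based tables and 44.8 ± 4.28% in the second quantification.

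Odc1 was read mostly from its coding transcript. Odc1-201 held 86.8, 80.9 and 84.0% of Odc1 TPM in replicates 1, 2 and 3. Odc1-205, which is annotated as a target of nonsense-mediated decay, held 10.1, 17.3 and 12.7%, highest in replicate 2, where Odc1 itself was highest. In the second quantification it held 4.79, 8.54 and 5.9%, again highest in replicate 2. Odc1-205 lacks exon 8 of Odc1-201 (chr12:17548787-17548870, plus strand, 84 bases), and has 84 other bases in its place. Of these, 17 extend the exon before it (chr12:17548627-17548643) and 67 the exon after it (chr12:17549357-17549423). Both stretches are shown because they carry the stop codon that ends the annotated reading frame, in capitals in the joined insert.
Odc1-201 exon 8: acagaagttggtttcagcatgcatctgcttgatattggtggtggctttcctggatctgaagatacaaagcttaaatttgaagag
Odc1-205 insert: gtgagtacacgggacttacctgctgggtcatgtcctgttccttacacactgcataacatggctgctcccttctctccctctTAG
Odc1-205 also starts inside the gene and runs 421 bases past the end of Odc1-201, so the transcripts differ at both ends as well.

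**Figure D4:**
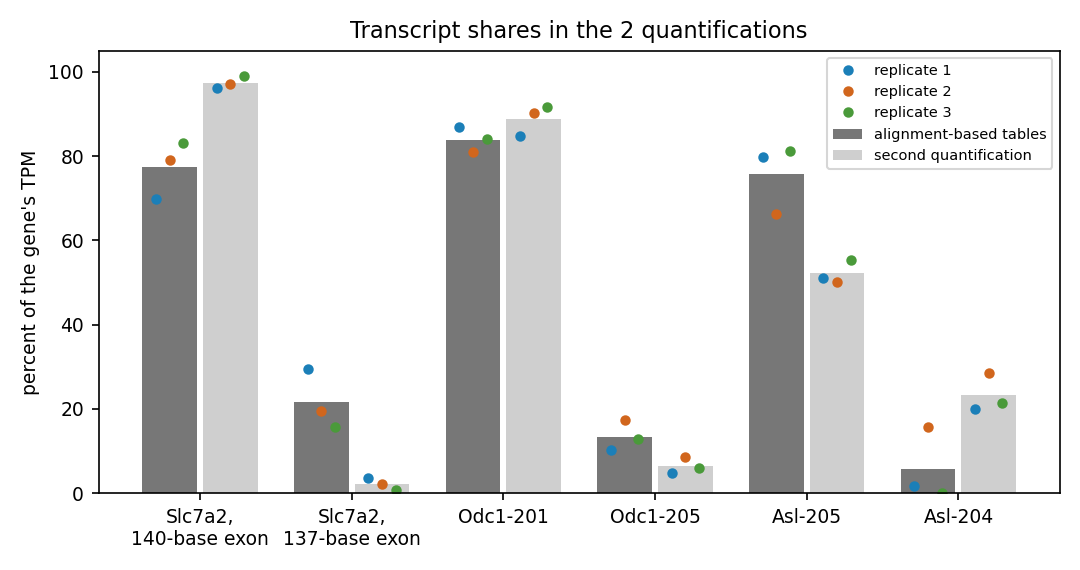
Percent of a gene's TPM on an exon or transcript, as mean bars from 0 with the 3 libraries as points, in the alignment-based tables (dark) and the second quantification (light). The 137-base exon of Slc7a2 averages 21.6% in the first and 2.21% in the second.

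The remaining genes came largely from a single transcript. Nos2-201 held at least 99.85% of Nos2 TPM in every library, Ass1-201 at least 99.29% and Gch1-201 at least 97.63%. All expected counts of Arg2, Slc7a1 and Ddah2 in the alignment-based tables were on Arg2-201, Slc7a1-201 and Ddah2-201. The second quantification put 6.62, 4.85 and 8.46% of Slc7a1 on Slc7a1-205, which retains an intron. Posterior means put 62.45 to 80.65% on Slc7a1-201 and 60.44 to 75.74% on Ddah2-201. Asl was the exception, with 79.8, 66.2 and 81.3% on Asl-205 in replicates 1, 2 and 3. The second quantification put 51.0, 50.1 and 55.4% on Asl-205. The short noncoding Asl-204 held 19.9, 28.6 and 21.5% there, against 1.7, 15.75 and 0% in the alignment-based tables. All 7 detected genes have several annotated transcripts and each kept its leading transcript in 3 of 3 libraries, as did 86.1% of such genes. In both quantifications 6 of 7 had the same leader, Slc7a2 being the exception, where 76.4% of such genes did.

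The second quantification gave lower TPM for most genes, with a median log2 ratio over the alignment-based TPM of -0.23 across 9774 detected genes. Nos2 (-0.28), Gch1 (-0.31), Ass1 (-0.30), Odc1 (-0.28) and Ddah2 (-0.25) lay close to that median. Slc7a2 (-0.11) and Asl (0.05) lay above it, and they are also the genes whose transcript shares differed most.

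The wider pathway was described with 52 other genes in 4 lists, of which 32 reached 1 TPM in all libraries, where 42.0% of protein-coding genes did. Of 18 genes around nitric oxide and tetrahydrobiopterin, 10 were detected. Calm2 and Calm3, which encode calmodulin, a protein that Nos2 binds, were abundant at 192 ± 9.72 and 118 ± 2.68 TPM. Qdpr, which regenerates tetrahydrobiopterin, stood at 26.3, 55.8 and 33.8 TPM, highest in replicate 2. Of the 11 genes tested, 6 varied beyond counting error, where 70.9% of all genes did.

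Of 13 genes of arginine, ornithine and proline metabolism, 6 were detected, and 4 had no counts in any library. Those 4 were Otc, Cps1 and Nags, known from the urea cycle of liver, and Agmat, which acts on agmatine. Their floors ran from 0.0326 TPM for Cps1 to 0.151 TPM for Agmat. Oat, which links ornithine to proline, stood highest at 21 ± 5.43 TPM. Gatm and Gamt, which make creatine from arginine and glycine, stood at 12.9 ± 3.55 and 4.21 ± 1.07 TPM. All 6 detected genes were highest in replicate 2, where 46.3% of all detected genes were, and all 8 tested varied beyond counting error, where 70.9% of all genes did.

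Of 15 polyamine genes, 13 were detected, where 42.0% of protein-coding genes were, and 12 of 14 tested varied beyond counting error, where 70.9% of all genes did. Sat1, which acetylates spermidine and spermine, stood at 1023.5, 851 and 1005.2 TPM in replicates 1, 2 and 3, above Nos2 in every library. Eif5a, the translation factor that carries hypusine made from spermidine, averaged 383 ± 109, Oaz1 333 ± 29.1 and Azin1 90.8 ± 9.13 TPM. Oaz3 had no counts, and Amd2, which is nearly identical to Amd1 and shares reads with it, averaged 0.157 ± 0.105 TPM.

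Of 6 other cationic carriers and partners, 3 were detected. Slc3a2, the heavy subunit of several exchangers, stood at 297 ± 20.6 TPM, Slc7a7, its partner in arginine export, at 47.6 ± 14.4 TPM, and the lysosomal carrier Slc66a1 at 16.4 ± 1.91 TPM. Slc7a6, another partner of Slc3a2, lay at 0.927 ± 0.153 TPM. The carriers Slc7a3 (0.173 ± 0.174 TPM) and Slc25a29 (0.0967 ± 0.0907 TPM) were lowest.

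Over the 4 lists, 29 of 37 genes tested varied beyond counting error, where 70.9% of all genes did. Of the 32 detected, 20 were highest in replicate 2, where 46.3% of all detected genes were. A highest library at least 2 times the lowest was seen for 4, close to the 10% of all detected genes, among them, chosen after their values were seen, Srm at 3.3 times, Spr at 2.35 and Qdpr at 2.12. Srm, the spermidine synthase that follows Odc1, stood at 1.56, 3.43 and 1.04 TPM, and Spr, the last enzyme of tetrahydrobiopterin synthesis, at 2.91, 6.84 and 4.26 TPM. All 4 were highest in replicate 2, as Odc1 was, and the share among all genes with such a spread was not computed. Replicates 1 and 3 were less than 2 times apart for Srm, Spr and Qdpr.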

How the data were processed

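RNA-seq of polyadenylated RNA was quantified on assembly mm10 with GENCODE M21, per the readme deposited with each sample. Which programs were run is not stated there. The deposited gene tables held expected counts, assigned by a model without scaling between libraries, and TPM, per the file headers. Matching transcript tables held each transcript's percent of the TPM of its gene, per the file headers. A second deposited quantification, made without an alignment, gave estimated counts and TPM per transcript, which were summed per gene here. Entries that name no gene held 0.068 to 0.127% of counts and were left out of library totals.

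Genes were detected at 1 TPM in all 3 libraries. Gene pairs and neighbours were compared per library as log2((TPM + 0.1)/(TPM + 0.1)), and called apart with 1 sign in 3 of 3 libraries and a mean above 2 SD. A gene without counts was given a floor of 3 counts in that library, used in the figures and in the bound on Nos2 over Nos3. In the log2 ratios such a gene kept a TPM of 0, so those values depend on the pseudocount and are not bounds. Expected counts were rounded and scaled by TMM factors. Each of 12414 genes averaging 10 counts or more was tested between libraries by chi-square (2 degrees of freedom), with Benjamini-Hochberg adjustment over all of them at 0.05. An intercept-only edgeR fit gave the per-gene dispersions, which borrow from other genes. The chi-square script was tested on simulated data. With 1 group there was no test between groups, and libraries were numbered as the labels number the biological replicates. Intervals and floors cover counting error only.

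The 10 genes, the pathway and marker lists and the pairs were chosen with earlier results of these data known. Named were the 10 genes, both genes of each pair, and per pathway list the 4 genes with the highest and the 2 with the lowest mean TPM, some of which are not reported here. Single marker genes, genes without counts and the wider genes with a 2-fold spread were named after their values were seen. Sequences were read from GENCODE M21 transcripts. Alternatives covered the quantification, estimate, pseudocount, thresholds, filters, scaling and each library left out. Software was R 4.3.3, edgeR 4.0.16, DESeq2 1.42.0 (size factors only), Biopython 1.88, matplotlib 3.10.9, scipy 1.17.1, pandas 2.3.3, numpy 2.4.6 and Python 3.11.15.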

Additional observations from a re-analysis of the deposited data

How the results depend on the processing

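No paired analysis was possible because the 3 libraries form 1 group. No log2 difference of a gene pair changed sign in any alternative, whereas Odc1 and Ass1 changed order without replicate 2 and Arg2 and Slc7a1 without replicate 1. Of 319 recomputed values, 297 kept their direction and side of the threshold, or moved within 1 SD (counts, within 1.5 times). Log2 differences over genes with few or no counts moved in size, as Nos2 over Arg1 did (8.99 to 14.52 over pseudocounts of 1 and 0.01). Replicate 2 mattered most: without it 8 of 9 neighbours in the order were apart in place of 3, and 5299 genes in place of 8799 varied beyond counting error. Leaving out each library in turn gave 3 to 8 neighbours apart, 12 to 14 pairs apart, 7 to 8 genes detected, 6 to 7 of the 10 varying, and 5299 to 7459 of all genes varying. The count with a 2-fold spread was 0 to 1 over those fits, 2 at 1.5 times, 0 at 3 times and 2 in the second quantification. The wider lists had 10 to 10 (nitric oxide), 6 to 7 (arginine), 13 to 13 (polyamine) and 3 to 3 (transport) detected, and the arginine list 3 at 5 TPM. The percent of Slc7a2 on the 137-base exon was 2.21 in the second quantification, against 21.6, and 22.0 with posterior means, an alternative chosen after seeing the data. The cause was not tested. Mean TPM moved by more than 1 SD for Nos2 (435 in the second quantification, 499 with posterior means, 569 without mitochondrial genes and the ribosomal RNA gene CT010467.1), Gch1 (67.9), Ass1 (33.4) and Ddah2 (1.86, 2.85 and 2.4). Arg1 had 0.403 TPM with posterior means, which put 47.18 to 64.88% of it on Arg1-202, a transcript without expected counts in any library. Depth limits Arg1, Arg2, Ddah2 and the genes without counts, for which levels under their floors cannot be seen.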
